A study of Mus musculus with 18 samples.

Results

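The comparison covers 9 of the 18 small RNA libraries of the study: 3 of control cells on a soft 1 kPa gel, 3 of the same cells on a stiff 308 kPa gel with Y27632, and 3 on the stiff gel with blebbistatin. The libraries were chosen by their labels for cell line, gel and inhibitor. The question was whether cells on a stiff gel that received an inhibitor of contractility resemble cells on a soft gel. The other 9 libraries are 3 of untreated control cells on 308 kPa, used here as the reference point for stiff, and 6 of cells with a disrupted LINC complex, which enter the estimate of the spread, the filter on low values and the scaling alternatives, but no comparison.

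All 9 samples were NIH 3T3 TetON mouse fibroblasts carrying SS-GFP-KDEL, a green fluorescent protein kept in the endoplasmic reticulum, and all received doxycycline at 1 µg/ml for 48 hours to switch it on. This control line, called KDEL, is 1 retrovirally transduced line sorted for fluorescence, so the replicates do not sample different lines. Y27632 was given at 25 µM and blebbistatin at 10 µM, each for 48 hours, and the soft cells received neither. The inhibitors were not tested on the soft gel, and doses and times were not varied. The study calls its replicates biological, but the labels do not say that they came from separate cultures, so the spread behind each p-value is that between libraries and may be technical. Replicate numbers below follow no label and only name libraries.

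Fibroblasts pull on their substrate with non-muscle myosin II, and they build larger adhesions and stress fibres on stiff gels than on soft ones. Y27632 and blebbistatin are both used to lower this contractility, and blebbistatin does so by blocking the myosin motor itself. MicroRNAs are short RNAs that pair with messenger RNAs mostly through their seed, the bases after the first one, and lower the output of those messengers. miRNAs with the same seed can share targets, and members of a family or of a gene cluster are often made together.

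The sequences of the miRNAs on which the comparison turns are from RefSeq (build GRCm38.p6), 5′ to 3′, with the seed, bases 2 to 8, in capitals. For blebbistatin, the directions given with these sets are those of its replicates 1 and 2. The first set is the miR-17 seed family, promoters of proliferation, shown because its 4 tested members share 1 seed and all 4 were higher with both inhibitors than on the soft gel. miR-17-5p (chr14:115043684-115043706, plus strand) and miR-20a-5p (chr14:115044183-115044205, plus strand) come from 1 gene cluster. miR-93-5p (chr5:138165574-138165596) and miR-106b-5p (chr5:138165787-138165807) lie on the minus strand inside Mcm7, the gene of a DNA replication helicase subunit.
miR-17-5p: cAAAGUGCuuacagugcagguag
miR-20a-5p: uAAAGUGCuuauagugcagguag
miR-93-5p: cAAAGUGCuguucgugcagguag
miR-106b-5p: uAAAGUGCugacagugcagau

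The second set is the miR-29 guide strands, known as repressors of collagens, with 1 shared seed. miR-29a-3p lies at chr6:31062673-31062694 (minus strand). miR-29b-3p and miR-29c-3p lie at chr1:195037091-195037113 and chr1:195037600-195037621 on the plus strand, within A330023F24Rik, and a further copy of miR-29b-3p lies at chr6:31063025-31063047 (minus strand).
miR-29a-3p: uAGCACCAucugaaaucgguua
miR-29b-3p: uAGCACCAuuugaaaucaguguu
miR-29c-3p: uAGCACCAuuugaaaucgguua

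The third set is 4 miRNAs with different seeds that were higher with both inhibitors. miR-362-3p (chrX:7241984-7242005) and miR-501-5p (chrX:7241307-7241328) are both on the minus strand inside Clcn5, the gene of an endosomal chloride transporter. miR-125b-5p has plus-strand copies at chr9:41581940-41581961, within Mir100hg, and at chr16:77646279-77646300, and miR-31-5p is at chr4:88910614-88910635 on the minus strand.
miR-362-3p: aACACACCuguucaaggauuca
miR-501-5p: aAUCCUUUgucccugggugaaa
miR-125b-5p: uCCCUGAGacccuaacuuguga
miR-31-5p: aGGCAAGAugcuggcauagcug

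The last set is 4 miRNAs that were lower with blebbistatin than on the soft gel. They are not particular to blebbistatin: miR-21b was lower with Y27632 too, and all 4 were under median-of-ratios scaling. miR-21a-5p (chr11:86584120-86584141, minus strand, within Vmp1) is the most abundant miRNA of these cells, and miR-21b (chr3:29636768-29636790, plus strand, within Egfem1) matches it at 18 of 22 positions, so the way reads were divided between them may touch the values of miR-21b. miR-146b-5p (chr19:46342790-46342811, plus strand) belongs to a family induced by NF-kB signalling, and miR-455-5p (chr4:63256867-63256888, plus strand) lies inside Col27a1, a collagen gene.
miR-21a-5p: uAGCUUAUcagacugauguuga
miR-21b: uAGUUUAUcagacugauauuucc
miR-146b-5p: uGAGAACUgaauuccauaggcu
miR-455-5p: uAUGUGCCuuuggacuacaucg

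The libraries held 4170832 to 6380595 miRNA reads on the soft gel, 3935742 to 5828831 on the untreated stiff gel, 6605206 to 8456994 with Y27632, and 7504623 and 6042606 in blebbistatin replicates 1 and 2. Blebbistatin replicate 3 stood apart: it held 1361360 reads, 17.5% of its tested miRNAs were at the floor value that stands for no read, and its mean Spearman correlation with the other blebbistatin libraries was 0.779, where blebbistatin replicates 1 and 2 correlated at 0.989 with each other. Results are therefore given without and with it. Values are normalised reads, in which 1 read was worth 0.666 to 1.55 depending on the library. Fibroblast marker miRNAs made up 262397 to 510795 RPM (reads scaled to a common library total) in the soft, untreated stiff, Y27632 and blebbistatin replicate 1 and 2 libraries, against 28.5 to 70.8 RPM for epithelial and 5.33 to 9.92 RPM for blood cell markers. The neural list held 2838 to 3691 RPM in those libraries and 1691 RPM in blebbistatin replicate 3, and the endothelial and liver list 112 to 201 RPM and 63.2 RPM.

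Cells treated with Y27632 on the stiff gel differed from cells on the soft gel in many miRNAs. The test covered 481 miRNAs that reached 10 normalised reads in 3 or more libraries. Of these, 248 were higher with Y27632 and 2 were lower (limma, Benjamini-Hochberg threshold of 0.05), which is 51.6% and 0.416% of those tested. The proliferation-linked miR-17-5p and miR-19b-3p, the collagen repressor miR-29a-3p, and the abundant miR-125b-5p and miR-31-5p were among those higher. The median difference over all 481 miRNAs was 0.99 on the log2(value + 1) scale. With median-of-ratios scaling, which sets the typical miRNA of every library to the same level, the median was 0.03 and the split became 63 higher and 56 lower (13.1% and 11.6%). Of the 248 miRNAs higher in the deposited values, 38 were also higher under median-of-ratios scaling, quantile scaling and edgeR, and both lower ones were lower under all 3. Differences below are in the deposited scaling unless median-of-ratios scaling is named. The share of all miRNAs called in the same scaling is the yardstick for each family's count. Non-overlap with soft was a condition for naming many of the miRNAs below. It held for 320 of the 481 with Y27632 and 308 with blebbistatin replicates 1 and 2. In these bulk samples fewer cells making a miRNA and less of it per cell cannot be told apart.

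**Figure D1:**
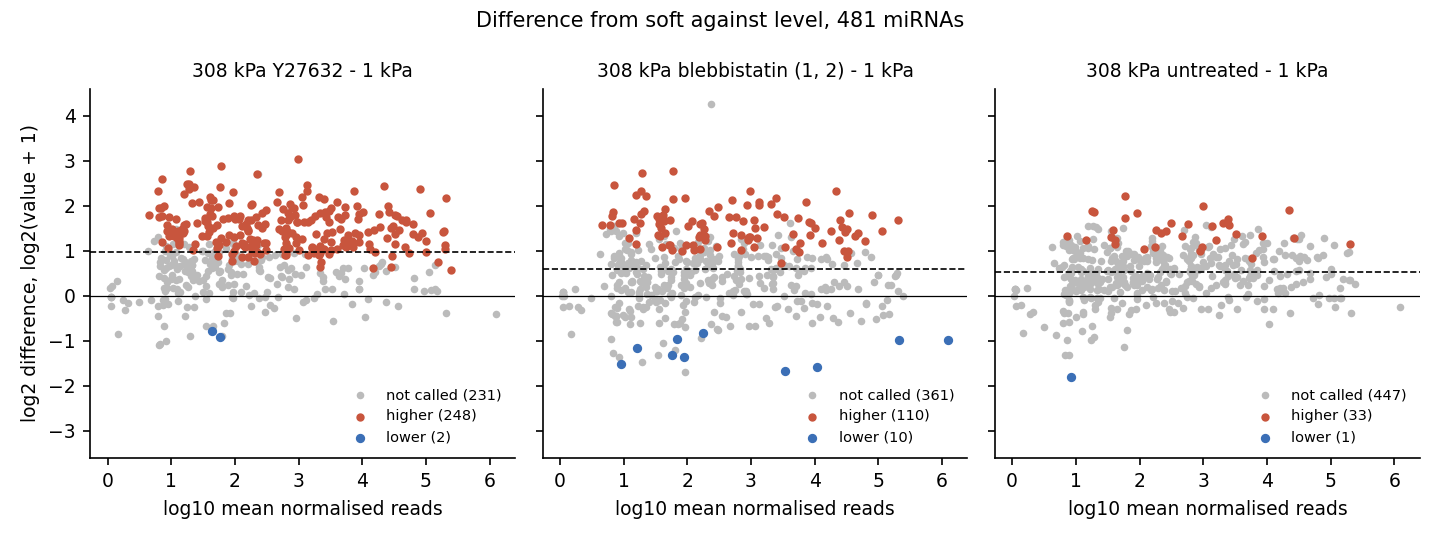
Difference between each stiff-gel group and the soft group (vertical axis, log2(value + 1) units) against the mean normalised reads of the KDEL libraries other than blebbistatin replicate 3 (horizontal axis, log10) for 481 miRNAs; coloured points passed an adjusted p of 0.05 and the dashed line is the median. The cloud with Y27632 is centred at 0.99, with blebbistatin at 0.59 and without inhibitor at 0.54, and the called points below 0 number 2, 10 and 1.

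In blebbistatin replicates 1 and 2 most called miRNAs were also higher than on the soft gel, among them miR-17-5p, miR-19b-3p, miR-125b-5p and miR-31-5p, and the lower ones included the abundant miR-21a-5p and miR-143-3p. Of the 481 miRNAs, 110 were higher than on the soft gel (22.9%) and 10 were lower (2.08%), with a median difference of 0.59. After median-of-ratios scaling the counts were 53 higher and 50 lower (11.0% and 10.4%). Of the 110 higher miRNAs 30 were also higher under all 3 other scalings, and of the 10 lower ones 9 were also lower. The calls rest on both blebbistatin libraries and on the soft ones: without blebbistatin replicate 1 there were 2 calls, miR-3069-5p and miR-15a-3p, without blebbistatin replicate 2 there were 8 calls, without soft replicate 1 there were 57 and without soft replicate 2 there were 34.

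With blebbistatin replicate 3 included, limma called 0 of 481 miRNAs in either direction (0% higher and 0% lower), 28 had an unadjusted p under 0.05, edgeR called 0 and DESeq2 called 11. The median difference over the 481 was then -0.39. When that library entered the spread of the Y27632 comparison, the 250 calls there also became 0, with 74 miRNAs at an unadjusted p under 0.05.

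Untreated cells on the stiff gel also differed from soft cells mostly by higher miRNAs, again with miR-17-5p, miR-15a-3p and miR-362-3p. There were 33 miRNAs higher (6.86%) and 1 lower (0.208%), with a median difference of 0.54. Scaled by median of ratios, 4 were higher and 8 lower (0.832% and 1.66%). The lower one in the deposited values was miR-7648-3p. The 3 comparisons share the soft libraries, so their values are set side by side and no overlap between them is counted. Leaving out single libraries other than soft replicate 3 brought the count of 34 down to between 1 and 4, and miR-15a-3p was called in each of those fits.

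Against untreated stiff cells, no miRNA passed the threshold with either inhibitor. For Y27632 limma called 0 of 481 (0% in each direction), 62 had an unadjusted p under 0.05, 61 of them higher with the inhibitor, and edgeR called 0. Under median-of-ratios scaling 33 had an unadjusted p under 0.05 and limma again called 0. For blebbistatin replicates 1 and 2 limma called 0 (0% in each direction), 23 had an unadjusted p under 0.05 and edgeR called 0. The median difference from untreated stiff was 0.43 for Y27632 and 0.08 for blebbistatin, and 0.0065 and 0.05 under median-of-ratios scaling. Without untreated stiff replicate 2, miR-3112-5p and miR-6966-3p were called higher with Y27632. Between Y27632 and blebbistatin replicates 1 and 2, at their different doses, limma called 0 (0% in each direction), 40 had an unadjusted p under 0.05, and edgeR called 0. A missed threshold with 2 or 3 libraries a group does not show that the levels were equal, and intervals of the differences are given for the miRNAs below.

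The profile as a whole was placed on the line that runs from the mean soft library (0) to the mean untreated stiff library (1). The Y27632 libraries lay at 1.44, 1.44 and 1.47, a mean of 1.45 ± 0.019 (SD, n = 3), and blebbistatin replicates 1 and 2 at 1.18 and 1.11. All 5 were beyond the untreated stiff libraries, at 0.96 to 1.04, and on the side away from the soft ones, at -0.22 to 0.19. Under median-of-ratios scaling the Y27632 libraries were at 1.19, 1.17 and 1.04 and the blebbistatin libraries at 1.23 and 1.20, of which 1 Y27632 library fell within the untreated stiff range of 0.96 to 1.05. Blebbistatin replicate 3 was at -2.96, on the other side of the soft libraries. The untreated libraries define the line, so these places are a description and carry no test.

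**Figure D2:**
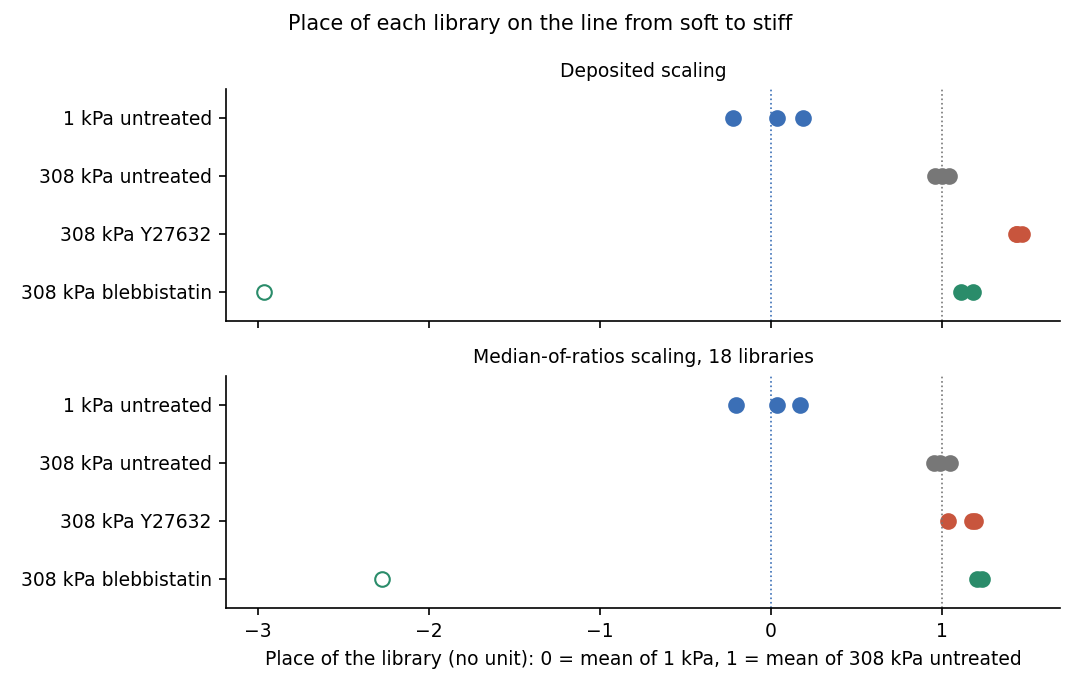
Place of each KDEL library on the line from the mean soft library (0) to the mean untreated stiff library (1), horizontal axis without unit, in the deposited scaling (upper panel) and under median-of-ratios scaling of all 18 libraries (lower panel); each circle is 1 library and the open circle is blebbistatin replicate 3. In the upper panel the Y27632 libraries sit at 1.44 to 1.47 and blebbistatin replicates 1 and 2 at 1.11 and 1.18, while the open circle is at -2.96.

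Distances between libraries placed the Y27632 libraries and blebbistatin replicates 1 and 2 nearer to untreated stiff than to soft, while blebbistatin replicate 3 was at 2.82 to 3.12 from soft and 3.59 to 3.76 from untreated stiff. The root mean square log2 difference over the 481 miRNAs had a median of 0.96 between soft and untreated stiff libraries, 1.32 between soft and Y27632 libraries and 1.10 between soft libraries and blebbistatin replicates 1 and 2. It was 0.74 between untreated stiff and Y27632 libraries and 0.55 between untreated stiff libraries and blebbistatin replicates 1 and 2, within the 0.45 to 0.80 found between replicates of the soft, untreated stiff, Y27632 and blebbistatin 1 and 2 groups. After median-of-ratios scaling the distance from soft was 0.83 for untreated stiff, 0.97 for Y27632 and 0.97 for blebbistatin replicates 1 and 2, and from untreated stiff 0.58 and 0.55 for the inhibitors. Blebbistatin replicate 3 was at 2.82 to 3.12 from the soft libraries, 3.59 to 3.76 from the untreated stiff ones and 3.71 to 3.76 from the other blebbistatin libraries, all above the distances between any other 2 libraries given here.

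The miR-17 family was higher with both inhibitors than on the soft gel. miR-17-5p, which promotes entry into the cell cycle, was at 6663, 4242 and 7183 normalised reads on the soft gel, at 35449, 34438 and 27042 with Y27632, and at 28186 and 30964 in blebbistatin replicates 1 and 2. These 5 inhibitor libraries were above every soft library and above the untreated stiff libraries, at 22218, 23029 and 21188, while blebbistatin replicate 3, at 21.9, was below every soft one. The order against untreated stiff depended on the scaling. As a share of reads, Y27632 replicate 3 held 0.339%, below the untreated stiff libraries at 0.363 to 0.418%. The difference from soft was 2.45 ± 0.46 (SE) for Y27632 (limma adjusted p = 0.00078) and 2.33 ± 0.51 for blebbistatin (adjusted p = 0.0072), and 1.45 and 1.74 under median-of-ratios scaling. Against untreated stiff it was 0.54 for Y27632 with a 95% interval from -0.42 to 1.49, and 0.42 for blebbistatin, from -0.66 to 1.49.

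The other members of this seed differed less. miR-20a-5p was 1.55 ± 0.40 higher with Y27632, miR-93-5p 1.80 ± 0.41 and miR-106b-5p 1.97 ± 0.46. With blebbistatin replicates 1 and 2 they were 1.42, 1.48 and 1.73 higher, and all 3 passed the test in both comparisons. Under median-of-ratios scaling miR-20a-5p no longer passed in either (differences of 0.55 and 0.83), while miR-93-5p and miR-106b-5p did. The median over the 4 members was 1.88 for Y27632 and 1.60 for blebbistatin, and 0.89 and 1.02 after median-of-ratios scaling.

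miR-19b-3p, with a copy in the miR-17-5p cluster on chr14 and another on chrX, had 1106, 604 and 641 normalised reads on the soft gel. It had 4808, 3334 and 2370 with Y27632 and 3677 and 3172 in blebbistatin replicates 1 and 2. The groups did not overlap, while untreated stiff libraries, at 3553, 2111 and 1993, overlapped both inhibitor groups. The differences from soft were 2.16 ± 0.46 (adjusted p = 0.0016) and 2.18 ± 0.52 (adjusted p = 0.010), and 1.16 and 1.59 under median-of-ratios scaling, where both passed. Of 17 tested miRNAs in the miR-17 cluster and its paralogs, 15 were higher and 0 lower with Y27632 and 13 higher and 0 lower with blebbistatin, where 51.6% and 22.9% of all miRNAs were higher. Their median differences were 1.51 and 1.39, against 0.99 and 0.59 over all miRNAs. On the untreated stiff gel 3 of the 17 were higher than on the soft gel and 0 lower, against 6.86% and 0.208% of all miRNAs. The median there was 1.17, against 0.54 over all miRNAs, so much of the family's difference from soft was present without inhibitor. Under median-of-ratios scaling 5 and 6 of the 17 were higher, where 13.1% and 11.0% of all miRNAs were higher. There 0 of the 17 were lower, and the medians were 0.54 and 0.82.

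Of 14 tested members of the miR-15/16 family, which restrains the cell cycle, 10 were higher with Y27632 and 5 with blebbistatin, against 51.6% and 22.9% of all miRNAs, and 0 were lower. With median-of-ratios scaling the family split into 5 higher and 2 lower members with Y27632, and into 4 and 2 with blebbistatin. Over all miRNAs the shares in that scaling were 13.1% and 11.6% with Y27632, and 11.0% and 10.4% with blebbistatin. In the deposited values 3 members were higher on the untreated stiff gel than on the soft gel, against 6.86% of all miRNAs. The family medians were 1.78 with Y27632, 1.12 with blebbistatin and 1.10 on the untreated stiff gel. The passenger strand miR-15a-3p, encoded within Dleu2, was at 9.21, 11.7 and 13.9 on the soft gel, at 118, 83.0 and 76.4 with Y27632, and at 96.0 and 73.0 in blebbistatin replicates 1 and 2. Untreated stiff libraries were at 59.0, 50.8 and 62.3, above every soft library and below every one of those 5. That order against the inhibitor libraries holds in the deposited scaling only. Per read sequenced, Y27632 replicate 3 overlapped the untreated stiff libraries. The differences from soft were 2.88 ± 0.36 and 2.77 ± 0.40 (adjusted p = 8.2e-05 and 0.00080), and 1.92 and 2.21 under median-of-ratios scaling, with intervals against untreated stiff of -0.09 to 1.41 and -0.29 to 1.38. The passenger strand miR-16-2-3p, encoded within Smc4, a condensin gene, was higher by 2.30 and 2.17, and by 1.32 and 1.59 under median-of-ratios scaling.

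**Figure D3:**
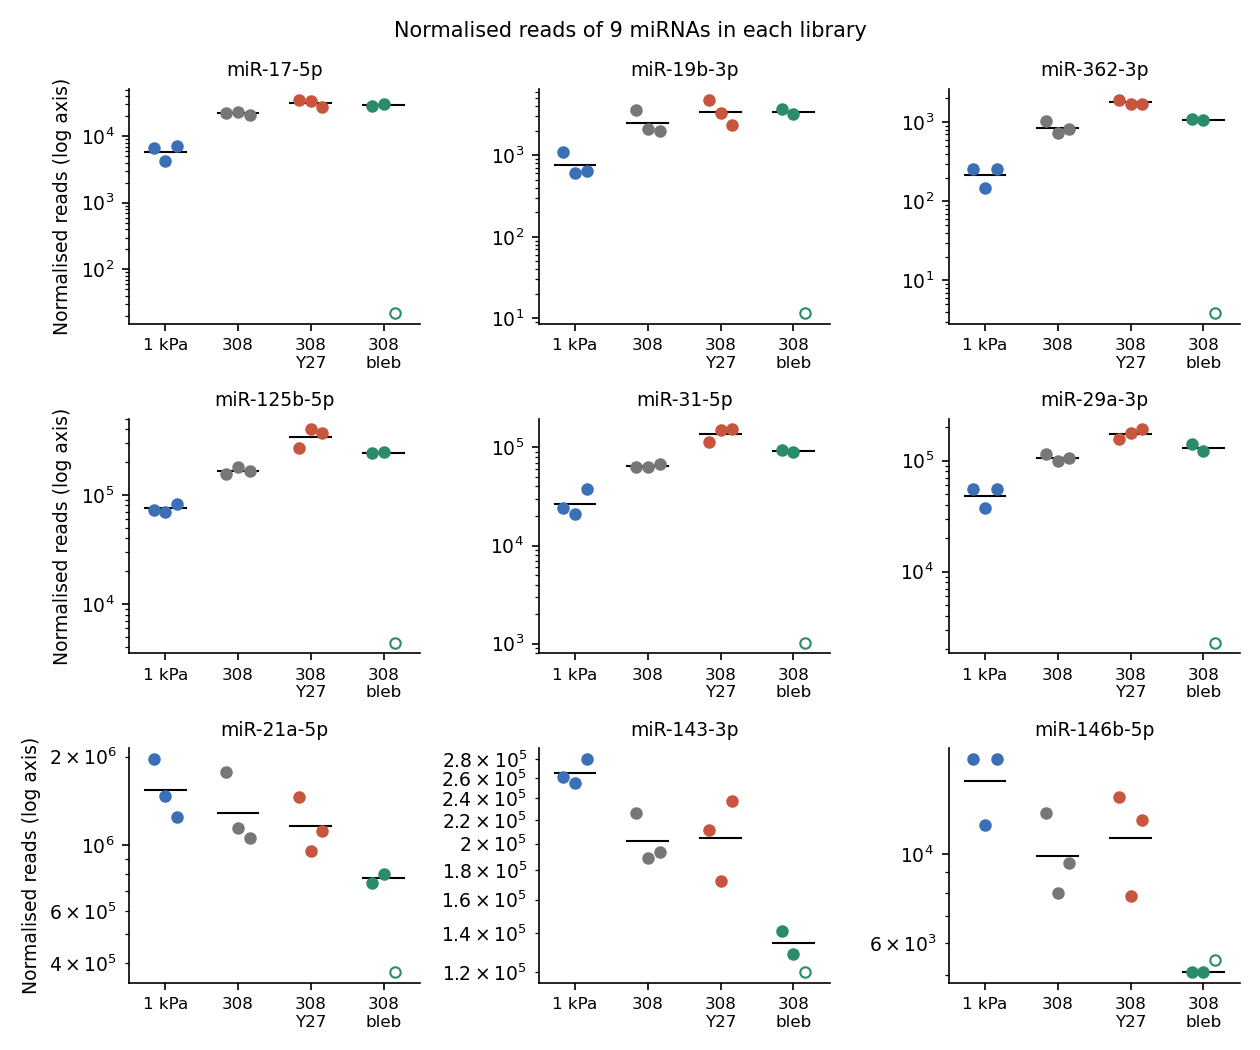
Normalised reads (vertical log axes) of 9 miRNAs in each KDEL library by gel and inhibitor; filled circles are libraries, the open circle is blebbistatin replicate 3 and lines are geometric means without it. For miR-17-5p the soft libraries are at 4242 to 7183 and the Y27632 libraries at 27042 to 35449; for miR-143-3p they are at 254655 to 280789 and 172042 to 237334.

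miR-29a-3p, a repressor of collagen and other matrix messengers, was higher with both inhibitors. It was at 55514, 37290 and 55289 normalised reads on the soft gel, at 155826, 179196 and 192624 with Y27632, and at 141548 and 121584 in blebbistatin replicates 1 and 2. The lowest of these 5 inhibitor libraries was above the highest untreated stiff library, at 115057, which was above every soft library. Blebbistatin replicate 3 was at 2291. The differences from soft were 1.85 ± 0.39 (adjusted p = 0.0015) and 1.43 ± 0.44 (adjusted p = 0.028), and 0.86 and 0.84 after median-of-ratios scaling. Of 7 tested members of its family 5 were higher with Y27632 and 2 with blebbistatin, the latter near the 22.9% of all miRNAs and the former above 51.6%. Under median-of-ratios scaling 2 were higher with each, against 13.1% and 11.0% of all miRNAs, and 0 were lower in either scaling. On the untreated stiff gel 1 member was higher than on the soft gel in the deposited values, against 6.86% of all miRNAs. The family medians were 1.70 with Y27632, 1.23 with blebbistatin and 1.01 on the untreated stiff gel. As a share of all miRNA reads the family held 0.865 to 1.15% on the soft gel, 1.86 to 2.04% on the untreated stiff gel, 2.18 to 2.70% with Y27632 and 2.59 to 2.89% in blebbistatin replicates 1 and 2.

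miR-125b-5p, a miRNA that dampens p53 signalling, was higher with both inhibitors, for blebbistatin in replicates 1 and 2. Its values were 73197, 70355 and 82671 on the soft gel, 269593, 399618 and 371103 with Y27632, and 240105 and 246852 in blebbistatin replicates 1 and 2. Untreated stiff libraries at 156316, 179974 and 164217 lay between, without overlap on either side. Blebbistatin replicate 3 went the other way, with 0.252% of its reads against 1.42 to 1.68% on the soft gel. The differences from soft were 2.18 ± 0.32 (adjusted p = 0.00019) and 1.69 ± 0.36 (adjusted p = 0.0064), and 1.19 and 1.10 after median-of-ratios scaling, both past the threshold. Against untreated stiff, Y27632 was 1.04 higher with a 95% interval from 0.36 to 1.71, which did not pass after adjustment.

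The related miR-99b-5p and miR-100-5p did not pass the test with either inhibitor in the deposited values. miR-100-5p was at 112501, 141396 and 125863 on the soft gel and at 123294, 138052 and 155879 with Y27632, overlapping ranges, with a difference of 0.14 ± 0.21 that did not pass and that was -0.86 under median-of-ratios scaling (adjusted p = 0.021). Of 11 tested members of the miR-99, miR-100 and miR-125 families 3 were higher with Y27632 and 2 with blebbistatin. Both counts were below the share of all miRNAs (51.6% and 22.9%). The medians of 0.70 and -0.09 became -0.29 and -0.68 under median-of-ratios scaling. There 2 were higher and 2 lower with Y27632, against 13.1% and 11.6% of all miRNAs. With blebbistatin 2 were higher and 3 lower, against 11.0% and 10.4%. In blebbistatin replicate 3 miR-99b-5p alone held 19.6% of reads, against 1.83 to 3.70% in the other KDEL libraries.

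miR-31-5p was at 23842, 20818 and 37424 on the soft gel, at 113389, 150602 and 153041 with Y27632, and at 94998 and 90231 in blebbistatin replicates 1 and 2. All 5 were above the untreated stiff range of 62686 to 68214. In blebbistatin replicate 3 miR-31-5p held 0.0585% of reads, below the 0.461 to 0.762% of the soft libraries. The differences from soft were 2.38 ± 0.40 and 1.81 ± 0.45 (adjusted p = 0.00043 and 0.012), and 1.38 and 1.22 under median-of-ratios scaling. let-7d-5p, of the growth-restraining let-7 family, was higher by 1.86 ± 0.32 with Y27632 and 1.53 ± 0.36 with blebbistatin, and by 0.87 and 0.94 after median-of-ratios scaling. Of 11 let-7 guide strands tested, 10 were higher with Y27632, above the 51.6% of all miRNAs, and 2 with blebbistatin, below the 22.9%. After median-of-ratios scaling only 1 was higher in each comparison, below the 13.1% and 11.0% of all miRNAs. In the deposited values the let-7 medians were 1.22 with Y27632, 0.83 with blebbistatin and 0.63 on the untreated stiff gel. The most abundant, let-7i-5p, changed sign with the scaling: it was 0.58 ± 0.21 higher with Y27632 as deposited and -0.41 under median-of-ratios scaling, where it did not pass.

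miR-362-3p, from Clcn5, had the largest called difference with Y27632. miR-362-3p was at 257, 148 and 259 on the soft gel, at 1927, 1724 and 1719 with Y27632, and at 1100 and 1053 in blebbistatin replicates 1 and 2. Untreated stiff libraries, at 1044, 731 and 822, were below all 5. The differences were 3.05 ± 0.47 (adjusted p = 0.00025) and 2.32 ± 0.52 (adjusted p = 0.0081), and 2.06 and 1.74 after median-of-ratios scaling. miR-501-5p was at 63.7, 52.1 and 71.6 on the soft gel, at 359, 491 and 402 with Y27632, and at 214 and 255 with blebbistatin, differences of 2.72 ± 0.36 and 1.90 ± 0.40, and of 1.73 and 1.31 under median-of-ratios scaling. Against untreated stiff it was 1.32 higher with Y27632 (interval 0.56 to 2.07) and 0.49 with blebbistatin (interval -0.35 to 1.34), and neither passed after adjustment.

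Several of the other miRNAs with large differences rested on few reads. miR-3069-5p had 3 reads in the soft libraries together, 39 with Y27632 and 31 in blebbistatin replicates 1 and 2, ratios per read sequenced of 9.96 (95% exact counting interval 3.17 to 50.4) and 12.8 (3.98 to 65.2). These intervals cover counting error only. miR-34a-3p, the passenger strand of a p53-induced miRNA, was at 5.03, 1.06 and 6.93 on the soft gel and at 29.0, 29.0 and 34.9 with Y27632, and differed by 2.78 ± 0.48 with Y27632 and 2.73 ± 0.54 with blebbistatin, or 1.91 and 2.24 under median-of-ratios scaling. miR-491-5p and miR-3110-5p were both 2.48 higher with Y27632, and miR-301b-3p, of a family tied to matrix remodelling, was 2.42 higher. Of 8 tested members of the miR-130 and miR-301 family 4 were higher with each inhibitor. For Y27632 that is near the 51.6% of all miRNAs and for blebbistatin above the 22.9%. On the untreated stiff gel 3 of the 8 were higher than on the soft gel, against 6.86% of all miRNAs. After median-of-ratios scaling 2 were higher and 2 lower with Y27632, against 13.1% and 11.6% of all miRNAs. With blebbistatin 3 were higher and 1 lower, against 11.0% and 10.4%. miR-1983 was 2.46 higher with Y27632 (1.47 under median-of-ratios scaling), and its Y27632 libraries ranged from 1251 to 2941.

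In the blebbistatin comparison the low miRNAs miR-181d-3p and miR-216c-3p were 2.24 ± 0.47 and 2.22 ± 0.62 higher. Both had 10.0 normalised reads or fewer in each soft library, and miR-216c-3p did not pass under median-of-ratios scaling. miR-15b-3p had the largest fitted difference with blebbistatin, 4.26, but did not pass, since its soft libraries ranged from 3.19 to 75.5 and its blebbistatin libraries were at 1203 and 182; it was singled out after its values were seen.

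The lower miRNAs with blebbistatin included the abundant miR-21a-5p and miR-143-3p, which did not pass with Y27632 in the deposited values. Both are on the list of 7 fibroblast markers. Of these, 4 others were higher and 0 lower with Y27632, near the 51.6% of all miRNAs. Their median was 1.12, against 0.99 over all miRNAs. With blebbistatin 0 were higher and 2 lower, against 22.9% and 2.08% of all. Under median-of-ratios scaling 0 were higher and 2 lower with each inhibitor, where 11.6% and 10.4% of all miRNAs were lower. miR-21a-5p, a fibrosis-linked miRNA, was at 1966660, 1470450 and 1250230 normalised reads on the soft gel, at 1462660, 959596 and 1120120 with Y27632, and at 746969 and 803096 in blebbistatin replicates 1 and 2. The Y27632 and soft ranges overlapped and the blebbistatin libraries were below every soft and every untreated stiff library (1772050, 1145380 and 1056310). The difference from soft was -0.40 ± 0.27 for Y27632 (adjusted p = 0.21) and -0.99 ± 0.31 for blebbistatin (adjusted p = 0.029), and -1.39 and -1.58 under median-of-ratios scaling, where both passed (adjusted p = 0.0013 and 0.0014). miR-21b, at 81.3, 107 and 93.9 on the soft gel, was lower in both, with differences of -0.92 ± 0.36 for Y27632 (56.8, 45 and 46.2) and -1.31 ± 0.41 for blebbistatin (34.7 and 39.7). It was 1 of 2 miRNAs lower with Y27632 in the deposited values, the other being miR-129-5p (-0.78 ± 0.30), which with blebbistatin differed by -0.15 ± 0.33. With Y27632 they differed by -1.89 and -1.74 under median-of-ratios scaling. The miR-21b call with Y27632 was lost whichever single library was left out (adjusted p = 0.051 to 0.12) and without the level filter (adjusted p = 0.092). The miR-129-5p call was lost without any 1 of the Y27632 libraries (adjusted p = 0.053 to 0.12) and without soft replicate 2 (adjusted p = 0.21).

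miR-143-3p, a smooth muscle miRNA whose gene responds to serum response factor, was at 261416, 254655 and 280789 on the soft gel, at 210916, 172042 and 237334 with Y27632, and at 140962 and 128984 in blebbistatin replicates 1 and 2. Every inhibitor library was below every soft one, and the Y27632 libraries overlapped the untreated stiff ones (226433, 189195 and 193648). The difference from soft was -0.37 ± 0.22 for Y27632 (adjusted p = 0.14) and -0.98 ± 0.24 for blebbistatin (adjusted p = 0.012), and -1.37 and -1.57 under median-of-ratios scaling, where both passed. Against untreated stiff it was 0.02 for Y27632 (interval -0.43 to 0.47) and -0.59 for blebbistatin (interval -1.09 to -0.08), and neither passed after adjustment. Its neighbour miR-145a-5p went the other way: it was at 6403, 3798 and 5778 on the soft gel, at 14817, 9713 and 11710 with Y27632, and 1.19 ± 0.39 higher there (adjusted p = 0.016), though 0.20 under median-of-ratios scaling, where it did not pass. Of 7 tested SRF-linked contractile miRNAs, 4 were higher with Y27632, near the 51.6% of all miRNAs. With blebbistatin 0 were higher and 1 lower, against 22.9% and 2.08% of all miRNAs. After median-of-ratios scaling 0 were higher and 1 lower in each, near the 11.6% and 10.4% of all miRNAs that were lower. On the untreated stiff gel 0 were called in the deposited values and 1 was lower under median-of-ratios scaling. The deposited medians were 0.95 with Y27632, 0.45 with blebbistatin and 0.57 on the untreated stiff gel.

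The share of reads does not depend on the scaling. The miR-21 entries held 25.5 to 38.1% of reads on the soft gel, 19.8 to 29.0% on the untreated stiff gel, 14.1 to 19.9% with Y27632 and 14.9 to 16.7% in blebbistatin replicates 1 and 2. The SRF-linked miRNAs, nearly all of them miR-143-3p reads, held 5.24 to 5.88% on the soft gel, 3.65 to 3.96% on the untreated stiff gel, 2.74 to 3.18% with Y27632 and 2.90 and 3.06% with blebbistatin. For both, every Y27632 library and blebbistatin replicates 1 and 2 were below every soft library, and for the SRF-linked miRNAs also below every untreated stiff one. A share falls when other miRNAs take more of the reads, so a share alone does not give the amount per cell. In blebbistatin replicate 3 the SRF-linked share was 6.92%, above the soft range.

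**Figure D4:**
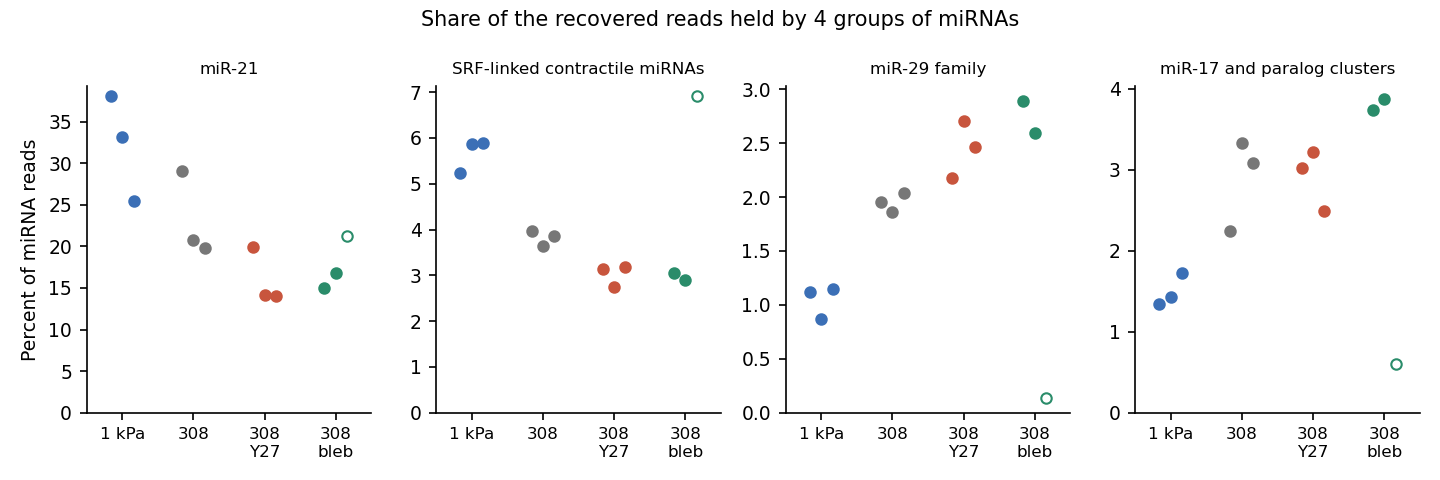
Percent of the recovered miRNA reads held by 4 groups of miRNAs (vertical axes from 0) in each KDEL library by gel and inhibitor; each circle is 1 library and the open circle is blebbistatin replicate 3. The SRF-linked share is 5.24 to 5.88% on the soft gel and 2.74 to 3.18% with Y27632, and the miR-29 share is 0.865 to 1.15% and 2.18 to 2.70%.

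miR-146b-5p and miR-455-5p were lower with blebbistatin and not, by the test, with Y27632. miR-146b-5p was at 17189, 11771 and 17212 on the soft gel and at 5095 and 5112 in blebbistatin replicates 1 and 2, with 13795, 7861 and 12146 under Y27632. Both blebbistatin libraries were below all of these, and the Y27632 libraries overlapped the soft ones. The difference was -1.57 ± 0.34 with blebbistatin (adjusted p = 0.0065) and -0.47 ± 0.30 with Y27632 (adjusted p = 0.19). miR-455-5p was at 6616, 2944 and 4366 on the soft gel and at 1313 and 1475 with blebbistatin, a difference of -1.66 ± 0.43 (adjusted p = 0.014), against -0.57 ± 0.39 with Y27632. Under median-of-ratios scaling both miRNAs passed with Y27632 too, at -1.46 and -1.56. Neither miRNA passed in the direct comparison of Y27632 with blebbistatin, which called none.

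The other miRNAs lower with blebbistatin were less abundant. miR-184-3p was at 8.38, 12.8 and 10.0 on the soft gel and at 2.67 and 3.18 in replicates 1 and 2, but at 139 in replicate 3. miR-3081-3p, miR-541-5p, miR-5099 and miR-582-3p differed by -1.37, -1.16, -0.95 and -0.83. In all 4 the libraries of replicates 1 and 2 were below every soft library. With replicate 3 included, the 5 miRNAs of lowest p were miR-143-3p (-1.03 ± 0.23), miR-146b-5p (-1.54 ± 0.35), miR-7063-5p (1.59 ± 0.38), miR-455-5p (-1.90 ± 0.47) and miR-21a-5p (-1.34 ± 0.34), all at an adjusted p of 0.11.

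Of the further families, the miR-23/27/24 clusters had 9 of 11 members higher with Y27632 and 1 with blebbistatin, against 51.6% and 22.9% of all miRNAs. Under median-of-ratios scaling 3 were higher and 1 lower with Y27632, against 13.1% and 11.6% of all miRNAs. There 0 passed with blebbistatin. On the untreated stiff gel 0 were called in the deposited values. The deposited medians were 1.69 with Y27632, 0.60 with blebbistatin and 0.51 on the untreated stiff gel. miR-27b-5p was at 312, 361 and 437 on the soft gel, at 821, 1318 and 1539 with Y27632 and at 538 and 579 in blebbistatin replicates 1 and 2. The Y27632 difference was 1.69 ± 0.29 (0.70 under median-of-ratios scaling), while that with blebbistatin, 0.60 ± 0.33, did not pass. The mesenchymal cluster of miR-199 and miR-214 had 6 of 6 higher with Y27632 and 0 with blebbistatin, and 0 in both after median-of-ratios scaling. Its deposited medians were 1.19 with Y27632, 0.30 with blebbistatin and 0.75 on the untreated stiff gel, where 0 were called. The abundant miR-199a-5p, miR-199a-3p and miR-24-3p were 1.12, 1.45 and 1.05 higher with Y27632, and 0.13, 0.46 and 0.05 after median-of-ratios scaling, where none passed. miR-199a-3p has the same mature sequence as miR-199b-3p, so the pair cannot be told apart.

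The remaining families had mixed counts, to be read against 51.6% of all miRNAs higher with Y27632 and 22.9% with blebbistatin. Lower calls made up 0.416% and 2.08%. Under median-of-ratios scaling the shares were 13.1% higher and 11.6% lower with Y27632, and 11.0% and 10.4% with blebbistatin. In the miR-30 family 7 of 11 were higher with Y27632 and 1 with blebbistatin, the miR-34 and miR-449 family had 5 of 6 and 1, and the miR-181 family 4 of 8 and 3. On the untreated stiff gel 0, 1 and 0 of these were higher, against 6.86% of all miRNAs, with medians of 0.48, 0.90 and 0.55. miR-221-3p and miR-222-3p, repressors of the cell cycle inhibitor p27, were the 2 of 4 higher with each inhibitor, but under median-of-ratios scaling 0 were higher and 1 lower with Y27632, and 1 was higher with blebbistatin. Among stimulus-induced miRNAs 4 of 6 were higher with Y27632 and 2 with blebbistatin, and among 5 inflammatory miRNAs 2 and 2, with miR-146b-5p lower with blebbistatin. After median-of-ratios scaling 1 stimulus-induced miRNA was higher with each inhibitor, and of the inflammatory ones 0 were higher, 1 was lower with Y27632 and 2 with blebbistatin. The medians of the miR-30, miR-34 with miR-449, and miR-181 families with Y27632 were 1.05, 1.28 and 1.00 and became 0.06, 0.29 and 0.01 under median-of-ratios scaling. There the miR-30 family had 1 higher and 2 lower with Y27632 and 0 and 2 with blebbistatin, the miR-34 and miR-449 family 1 higher and 1 lower with each, and the miR-181 family 1 and 1 with Y27632 and 1 and 0 with blebbistatin. The Dlk1-Dio3 imprinted miRNAs had 5 of 100 entries tested, 0 of them called with Y27632 and 1, miR-541-5p, lower with blebbistatin (medians of -0.19 and -0.57). Under median-of-ratios scaling 2 were lower with each (medians of -1.05 and -1.09), against 11.6% and 10.4% of all miRNAs. None of the 12 tested miRNAs of the X-linked germline cluster reached the level filter through KDEL libraries, and none was called in the deposited values, while 1 was lower with each inhibitor after median-of-ratios scaling.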

How the data were processed

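Small RNA libraries of 18 samples were sequenced, and 9 of them make up the comparison. Per the study's methods, the authors trimmed adapters, dropped reads shorter than a set length or of low quality and counted known miRNAs in AvadisNGS; per the labels FastQC was run and the build was mm9. The deposited table holds a normalised signal per mature miRNA and library. The study's miRNA methods do not say how it was scaled, while its mRNA methods name trimmed means of M-values. It equals whole reads times 1 factor per library with a floor at 1: 100% of values above the floor came out whole within 0.001. Of the names in the table, 1589 of 1603 that RefSeq lists have the GRCm38 position, so GRCm38.p6 positions are printed.

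The members and lists were chosen with earlier results of these data known. For names with several copies the entry of highest total was kept. The 481 of 1900 names that reached 10 in 3 or more of the 18 libraries were tested with limma 3.58.1 (trend) on log2(value + 1), a scale that understates changes of low miRNAs, with 1 spread from 17 libraries in 6 groups. Blebbistatin replicate 3 was left out except where stated. Calls used Benjamini-Hochberg adjusted p under 0.05. edgeR 4.0.16 (quasi-likelihood, TMM) and DESeq2 1.42.0 on the recovered reads, median-of-ratios and quantile scaling, a pseudocount of 10, other filters, array weights and leaving out single libraries were alternatives. The fits were tested on simulated data. Named miRNAs were, per comparison, up to 10 called in each direction with the largest difference and no overlap, the 5 called of highest mean (or, with too few calls, the 5 of lowest p), and 2 to 4 of lowest p in each list described. Non-overlap with soft was thus a condition for naming many of them. It held for 320 of the 481 miRNAs with Y27632 and for 308 with blebbistatin replicates 1 and 2. miR-15b-3p, miR-99b-5p, miR-100-5p, miR-20a-5p and miR-106b-5p, and miRNAs named because a count was 5 or fewer, fall outside that rule and were chosen after their values were seen. Total recovered reads per library are given with the results; their number limits the precision, and counting intervals cover counting error only. Sequences of 427 of the 481 were found in RefSeq.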

Additional observations from a re-analysis of the deposited data

How the results depend on the processing

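The counts of calls moved with the scaling and with single libraries. For Y27632 against soft, the 250 calls became 119 under median-of-ratios scaling, 104 under quantile scaling (49 higher, 55 lower), 105 with edgeR (43 and 62) and 142 with DESeq2 (77 and 65), and 0 with all 18 libraries; single libraries left out gave 188 to 239. For blebbistatin replicates 1 and 2, the 120 became 54 without the level filter, 203 with only the 4 KDEL groups and 251 with array weights, and 2 to 114 with single libraries left out. Quantile scaling split it 40 higher and 45 lower, edgeR 42 and 59, and DESeq2 69 and 60. With replicate 3 the 0 became 2 under quantile scaling, 11 with DESeq2, 1 without the filter, 260 with array weights, and 0 to 120 with single libraries left out, of which 120 was without blebbistatin replicate 3 and 1, miR-146a-5p, without blebbistatin replicate 2. For untreated stiff against soft the 34 became 12 under median-of-ratios scaling, 11 under quantile scaling and 12 with edgeR, and 1 to 43 with single libraries left out. The 0 of Y27632 against untreated stiff and of Y27632 against blebbistatin became 0 to 2 and 0 to 1 in the same way, and blebbistatin against untreated stiff gave 0 in every alternative run.

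The mean place on the soft-to-stiff line moved from 1.45 to 1.13, 1.18 and 1.52 for Y27632 and from 1.15 to 1.21, 1.28 and 1.17 for blebbistatin under median-of-ratios scaling, quantile scaling and a pseudocount of 10. Leaving out single untreated libraries gave 1.35 to 1.47 and 1.05 to 1.18. let-7i-5p with Y27632 reversed to -0.41 under median-of-ratios scaling, -0.12 under quantile scaling, -0.46 with edgeR and -0.40 with DESeq2, and miR-143-3p with blebbistatin replicates 1 to 3 reversed to 0.28 with DESeq2. The cause was not tested. A covariate for the run of library numbers, which label the libraries and are not stated to be a batch, gave 354 calls for Y27632 against soft, where the same 9 libraries gave 293 without it (added after seeing the data). No paired analysis was possible because the labels give no replicate number, and the run of library numbers above is a covariate, not a replicate block.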
